A study of Homo sapiens with 8 samples.

Results

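The comparison described here is the addition of JQ1 to lapatinib in SKBR-3 cells. It sets the single library of SKBR-3 treated with 300 nM lapatinib and 300 nM JQ1 against the single library of SKBR-3 treated with 300 nM lapatinib, 2 of the 8 libraries of the series. SKBR-3 is a human breast carcinoma line with amplified HER2 that lacks estrogen and progesterone receptors. Cells were grown in RPMI with serum and treated for 48 h, and gene expression was measured by RNAseq of polyadenylated RNA. Both groups carried lapatinib, so that the contrast holds the effect of JQ1 in cells whose HER2 kinase was exposed to its inhibitor as well. The remaining SKBR-3 libraries, which received the vehicle DMSO or 300 nM JQ1 alone, and the matching libraries of a second HER2-amplified line, BT474m1, are used only to place these changes. Genes were taken where the normalised read count was 100 or more in either library, which left 9950 of 20531.

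Lapatinib blocks the kinases of EGFR and HER2, the receptors on whose signalling through the PI3K and MAPK pathways these cells depend for division. JQ1 occupies the bromodomains of the BET proteins, BRD2 and BRD3 among them, which bind acetylated histones at promoters and enhancers and bring the elongation factor P-TEFb to RNA polymerase II. BET inhibitors are best known for lowering genes that rest on large enhancers, and for raising histone genes and HEXIM1, which encodes an inhibitor of P-TEFb. The libraries belong to a study of how HER2 inhibition alters enhancers and transcription and of how JQ1 alters that response.

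The values are estimated read counts, scaled in each library to place the upper quartile of its expressed genes at 1000. The lapatinib library held 21420113 reads on genes and the combination library 24418863, within the range of the series of 21420113 to 34112376. With 1 library per treatment no spread between replicates could be measured, and the contrast was not tested. The 95% intervals given with log2 fold changes cover counting error in these libraries only. Because each library was scaled to itself, a change in the total RNA per cell could not be seen. The epithelial keratins KRT8, KRT18 and KRT19 were high in both libraries, at 27970 or above. CDH1, which encodes E-cadherin, was at 6.13 with lapatinib and 15.1 with both drugs, and SKBR-3 is known to lack this protein. ESR1, the estrogen receptor gene, was at 16.8 and 2.75 and PGR, the progesterone receptor gene, at 3.06 and 0, all below the filter. Of 19 markers of basal, fibroblast, endothelial and immune cells, only CD68 reached 100, at 407 and 261.

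JQ1 added to lapatinib lowered 953 genes at least 2-fold, which was 9.58% of the genes tested, and raised 191, which was 1.92%. These are the shares against which the counts of list members are to be read. With the filter set on the DMSO library they were 10.1% and 1.44%. The remaining 8806 genes, 88.5%, stayed within 2-fold. Thus 83.3% of the changed genes fell, and scaling by the median of ratios instead gave 764 lower and 289 higher genes, of which 72.6% fell. That scaling moved the median log2 fold change of all tested genes by 0.16, from -0.07 to 0.09. JAK1, ELF3, KRT19, SERPINI1, B2M, JUND and DUSP5, given here within 2-fold, passed 2-fold under it, at 1.03 to 1.12. With a shift of this size GRB7 (0.98), INSR (0.99) and PCNA (0.86), also given here within 2-fold, pass it as well. Large changes were mostly losses: 276 genes fell at least 4-fold and 29 rose, 87 fell at least 8-fold and 10 rose, and 27 fell at least 16-fold and 2 rose. The counting interval excluded no change for all 953 lower and all 191 higher genes. The lower genes held 5.36% of the summed values with lapatinib and 1.71% with both drugs. The higher genes went from 1.70% to 4.57%. Of the lower genes, 472 passed the filter through the lapatinib library only, and 49 of the higher genes through the combination library only, so that some of these had to differ by the way they were selected. A lower gene given below 100 with both drugs, or a higher gene given below 100 with lapatinib, passed in this way. Just inside the filter was ADGRE2 at 100.1 with lapatinib and 58.7 with both drugs, and just outside was ZKSCAN3 at 77.2 and 99.8.

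**Figure D1:**
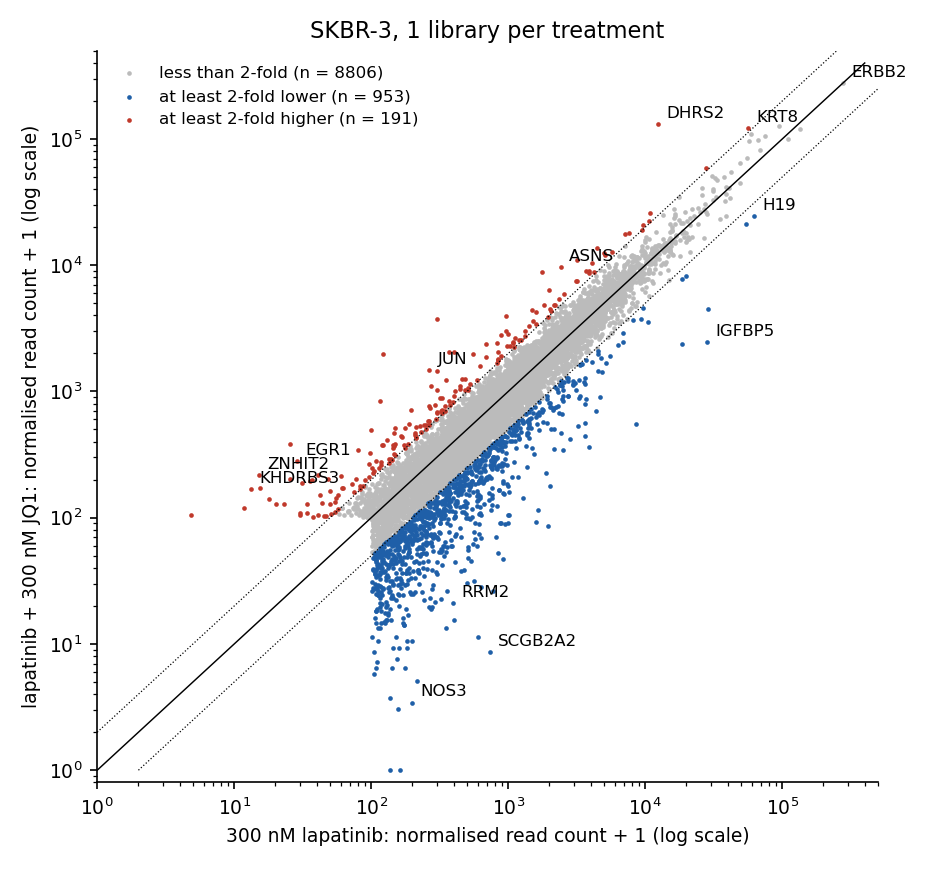
Normalised read count plus 1 of 9950 genes in SKBR-3 with 300 nM lapatinib (x axis) and with lapatinib and 300 nM JQ1 (y axis), both on log scales, with 1 point per gene, a solid line of equality and dotted lines at 2-fold. The 953 lower genes spread further from the line than the 191 higher ones, ERBB2 lies on the line, and DHRS2 stands above it at 131021.

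The largest loss with a clear count was in SCGB2A2, which encodes the secreted breast protein mammaglobin-A. Its value was 731 with lapatinib and 7.57 with both drugs, which gave a log2 fold change of -6.42 (95% interval -7.60 to -5.75). Under DMSO it was 53.0 and with JQ1 alone 1.93, so that the lapatinib library was the high one and both libraries with JQ1 were low. NOS3, the endothelial nitric oxide synthase gene, went from 198 to 2.43 (-5.86), LRRC31 from 155 to 2.06 (-5.67) and CCDC9B from 602 to 10.3 (-5.74). ACSL5, which activates long-chain fatty acids, was at 372 under DMSO, 770 under lapatinib, 14.2 under JQ1 and 25.5 under both drugs (-4.87).

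Of the other genes among those that fell most, 3 lie at the cell surface or at adhesions. PTPRH, a receptor tyrosine phosphatase, went from 348 to 12.4 (-4.71). SLC44A4, a choline transporter-like protein, went from 398 to 14.4 (-4.69) and TNS4, a tensin of focal adhesions, from 635 to 27.5 (-4.48). CBLN2, a secreted synapse organiser, went from 176 to 5.50 (-4.77), MAB21L4 from 1961 to 85.3 (-4.51), FRMPD2 from 137 to 2.75 (-5.20) and TBATA from 140 to 5.50 (-4.44). NOS3 and FRMPD2 rest in part on fractional read estimates. In every gene of this group the JQ1 library also lay below the DMSO library. CSAG3 and OCLNP1 were at 0 with both drugs, at least 77.8-fold and 65.6-fold lower against a floor of 3 reads, but each shares reads with a near-identical copy. The sum of CSAG2 and CSAG3 fell by 1.0 on the log2 scale, and the sum of OCLN and OCLNP1 changed by 0.33, so that the single-gene values are uncertain.

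By summed value, the greatest losses were in H19, an imprinted noncoding RNA, PPT1, a lysosomal thioesterase, IGFBP5, BCAS1 and KRT4. H19 was at 159004 under DMSO, 62280 under lapatinib, 169932 under JQ1 and 24475 under both drugs. JQ1 alone thus left H19 near the DMSO value, by 0.10 on the log2 scale, whereas it fell by 1.35 when JQ1 was added to lapatinib. PPT1 went from 53950 to 21233 (-1.35). IGFBP5, a secreted binding protein of insulin-like growth factors, was at 17022 under DMSO, 28073 under lapatinib, 577 under JQ1 and 2470 under both drugs, a log2 fold change of -3.51 (-3.56 to -3.46) for the addition. BCAS1 went from 28877 to 4528 (-2.67) and KRT4, a keratin of stratified epithelia, from 18550 to 2395 (-2.95). In these 3 genes both libraries with JQ1 were lower than both libraries without it.

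DHRS2, a mitochondrial and nuclear short-chain dehydrogenase, gained more value than any other gene. It was at 56702 under DMSO, 12380 under lapatinib, 255026 under JQ1 and 131021 under both drugs. The addition of JQ1 raised it by 3.40 on the log2 scale (3.38 to 3.43), a 10.6-fold change, from the lowest of the 4 SKBR-3 values to the second highest. The next gains in value were in the keratins of simple epithelia and in FASN, the fatty acid synthase. KRT8 went from 56640 to 122390 (1.11) and KRT18 from 27970 to 58479 (1.06). KRT19 went from 59041 to 110404 (0.90), KRT7 from 57528 to 95650 (0.73) and FASN from 95035 to 126490 (0.41), all below 2-fold. All 5 rest on fractional read estimates, and KRT8 and KRT18 are known to have many pseudogenes.

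The genes that rose most were ranked without the replication-dependent histone genes, which are given as a group. EGR1, a zinc finger factor induced by growth factor signalling, was at 225 under DMSO, 27.6 under lapatinib, 657 under JQ1 and 279 under both drugs, a log2 fold change of 3.29 (2.84 to 3.87) for the addition. JUN, a subunit of AP-1, was at 396, 263, 1543 and 1482 in the same order (2.49), and KLF2, a Krueppel-like factor, at 176, 47.5, 1578 and 202 (2.06). In all 3 genes lapatinib gave the lowest value. CDKN2D, which encodes the CDK4 and CDK6 inhibitor p19, rose from 19.1 to 127 (2.67). KHDRBS3, a splicing regulator, rose from 12.3 to 167 (3.67), HYCC1 from 14.5 to 170 (3.46) and F8, coagulation factor VIII, from 34.5 to 194 (2.46). PEG10, a retrotransposon-derived imprinted gene, rose from 1765 to 8895 (2.33), ZSWIM6 from 39.8 to 217 (2.42), EFNB2, the ligand ephrin-B2, from 79.6 to 345 (2.10) and H1-10, a linker histone whose message is polyadenylated, from 961 to 3977 (2.05). EIF3C (4.03), ZNHIT2 (3.84) and UPK3BL1 (2.99) also stood among the 15 that rose most, but rest, like F8 and DHRS2, on fractional read estimates. The sum of EIF3C and its copy EIF3CL changed by 0.12.

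Cell division genes fell as a group. The mitosis list held 34 genes, of which 23 passed the filter, and all 23 were at least 2-fold lower, where 9.58% of all tested genes were, with a median log2 fold change of -2.56 against -0.07. Since these members passed mainly through the lapatinib library, the list was also read with the filter set on the DMSO library, which takes no part in the contrast. All 34 members then passed and all 34 were at least 2-fold lower, from -4.95 to -1.15, with a median of -2.61. The smallest fall was that of KIF11, which the shift of the median of ratios takes within 2-fold. With the 4 members at or under 3 reads held at that floor the median was -2.64. MKI67, the proliferation antigen Ki-67, was at 8462 under DMSO, 538 under lapatinib, 6595 under JQ1 and 44.0 under both drugs (-3.58; interval -4.0 to -3.24). TOP2A, topoisomerase II alpha, was at 24959, 2174, 20268 and 347 in the same order (-2.65). PLK1, a mitotic kinase, was at 2170, 136, 1065 and 17.9 (-2.86) and CDK1, the kinase that starts mitosis, at 5178, 407, 4034 and 110.1 (-1.88). For all 34 genes the lowest of the 4 SKBR-3 values was that with both drugs, and lapatinib alone was below DMSO. The list was at -0.59 with JQ1 against DMSO, where 4 of 34 were at least 2-fold lower (5.95% of all genes tested there were).

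Fewer of the DNA replication genes fell. Of 39 genes in the list, 30 passed, 7 fell and 0 rose, with a median of -0.65, and with the filter on DMSO 14 of 39 fell with a median of -0.76. RRM2, the ribonucleotide reductase subunit made in S phase, was at 7440 under DMSO, 397 under lapatinib, 11020 under JQ1 and 19.9 under both drugs (-4.25; interval -4.91 to -3.78). JQ1 thus went with a higher RRM2 value in the absence of lapatinib (0.57) and a lower value in its presence. DTL, a licensing regulator, went from 116 to 17.2 (-2.69), TYMS, thymidylate synthase, from 143 to 28.1 (-2.31) and GINS1, a helicase subunit, from 249 to 72.9 (-1.76). PCNA, the sliding clamp, moved the other way within the list, from 983 to 1783 (0.86), and passed 2-fold with the median of ratios. The helicase subunit MCM4 was at 2425 and 2127 (-0.19). Homologous recombination and Fanconi repair genes had 4 lower of 11 that passed (median -0.60), and with the filter on DMSO 11 of 22 (median -1.0), where 9.58% and 10.1% of all genes were lower. Among them were FANCD2 (144 to 22), FANCI (244 to 79.0) and UBE2T (106 to 50.9), which fell less than 2-fold under the median of ratios.

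Of the transcription factors that drive the cell cycle, 13 of 20 passed and 3 fell, with a list median of -0.37, where 9.58% of all tested genes fell. With the filter on DMSO 7 of 18 fell, where 10.1% of all genes did, and the median was -0.77, as it was with a filter at 10. FOXM1, the activator of mitotic genes, was at 3274 under DMSO, 272 under lapatinib, 1348 under JQ1 and 17.9 under both drugs (-3.85). MYBL2, its partner in activating mitotic genes, was at 5467, 276, 3476 and 18.6 (-3.82). E2F3 went from 303 to 68.8 (-2.12), while LIN9, a subunit of the MuvB complex, went from 172 to 90.1 (-0.92). G1 cyclins and CDK inhibitors did not share this pattern, with 0 of 13 lower and 1 higher, CDKN2D, at a list median of -0.33 (-0.18 with the filter on DMSO, -0.17 with the median of ratios and -0.03 with a filter at 10). CDKN1A, which encodes p21, was at 214 and 371 (0.79) and CDC25A, a phosphatase that activates CDKs, at 137 and 88.7 (-0.62).

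**Figure D2:**
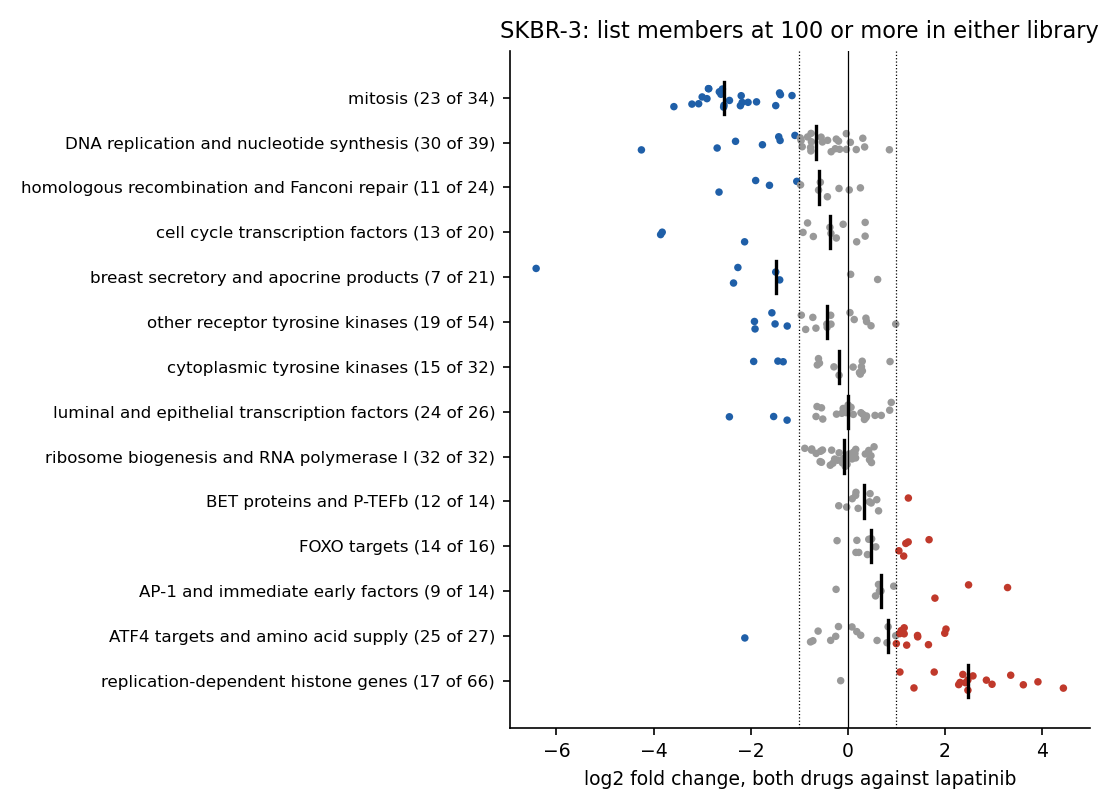
Log2 fold change of both drugs against lapatinib (x axis) for members of 14 gene lists that passed the filter, with the number passing of the number in each list in brackets, 1 point per gene, a black bar at the list median and dotted lines at 2-fold. The mitosis genes lie below -1 and ribosome biogenesis genes around 0. Of 17 histone genes shown 10 passed only through the combination library and of 23 mitosis genes 18 only through the lapatinib library, so that their direction was partly set by the filter.

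Mitotic promoters are known to carry the cell cycle genes homology region (CHR), with the letters TTTGAA, to which the MuvB complex binds. RefSeq windows of 300 bases on GRCh38.p14, from 250 before to 50 after the first start listed for a gene, were available for 15445 of the genes in the tables, and TTTGAA on either strand stood in 12.2% of them and in 8.90% of the windows of the genes tested. In the mitosis list it stood in 18 of 29 windows (62.1%), and in the DNA replication list in 1 of 33 (3.03%). Genes called lower as a whole had it in 13.6% of their windows and genes called higher in 11.5%. The windows are shown of the 3 members with a match that fell most among those that passed the filter, because they carry the element of a group that fell together. SPC25 and NDC80 also held a match and had lower log2 fold changes, but stayed below the filter. MKI67 (chr10:128126374-128126673, minus strand) has a pair of matches, 47 and 29 bases before the start, ASPM (chr1:197146620-197146919, minus strand), which encodes a spindle pole protein, has 1 on the opposite strand, and BUB1B (chr15:40160819-40161118, plus strand), a spindle checkpoint kinase, has 1 that begins 23 bases before the start. Capitals mark TTTGAA, or TTCAAA where the match is on the opposite strand.
MKI67: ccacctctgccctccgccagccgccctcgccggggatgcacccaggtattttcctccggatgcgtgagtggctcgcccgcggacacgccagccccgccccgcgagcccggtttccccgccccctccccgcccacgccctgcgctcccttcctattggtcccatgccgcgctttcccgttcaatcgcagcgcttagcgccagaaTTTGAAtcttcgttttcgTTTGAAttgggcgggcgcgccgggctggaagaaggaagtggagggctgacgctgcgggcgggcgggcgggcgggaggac
ASPM: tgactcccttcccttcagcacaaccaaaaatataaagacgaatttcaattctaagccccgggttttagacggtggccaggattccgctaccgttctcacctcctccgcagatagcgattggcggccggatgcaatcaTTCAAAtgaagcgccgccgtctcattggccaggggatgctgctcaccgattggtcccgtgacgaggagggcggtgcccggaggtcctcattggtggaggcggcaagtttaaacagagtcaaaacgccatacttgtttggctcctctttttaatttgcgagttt
BUB1B: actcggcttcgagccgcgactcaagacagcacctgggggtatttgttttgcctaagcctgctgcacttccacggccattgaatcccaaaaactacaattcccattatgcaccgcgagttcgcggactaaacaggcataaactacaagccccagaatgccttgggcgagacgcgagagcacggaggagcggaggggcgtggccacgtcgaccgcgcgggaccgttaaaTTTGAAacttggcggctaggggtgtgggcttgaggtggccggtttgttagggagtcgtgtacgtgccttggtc
Adding JQ1 took ASPM from 511 to 54.3 (-3.21) and BUB1B from 123 to 13.8 (-3.07), beside the fall of MKI67 given above.

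Part of the amino acid response rose. ATF4 is a transcription factor that is translated when amino acids are short or when the endoplasmic reticulum is stressed, and it activates genes that make and import amino acids. Of 27 genes in its list 25 passed, 11 rose (where 1.92% of all tested genes did) and 1 fell, and the median was 0.83. With the filter on DMSO 9 of 22 rose and 0 fell (median 0.82). For 16 of the 25, the highest of the 4 SKBR-3 values was that with both drugs. DDIT3, which encodes the stress factor CHOP, was at 72.3 under DMSO, 273 under lapatinib, 68.9 under JQ1 and 1113 under both drugs (2.02; interval 1.86 to 2.19). ASNS, asparagine synthetase, was at 1140, 2423, 2699 and 9682 in the same order (2.0; 1.94 to 2.05). SLC7A11, the cystine importer, was at 287, 888, 231 and 2813 (1.66). In all 3 genes the combination library stood above all others. JQ1 alone changed DDIT3 by -0.07 against DMSO, within counting error (-0.47 to 0.34).

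Further members that rose at least 2-fold were the glutathione-degrading enzyme gene CHAC1, from 329 to 893 (1.44), the stress sensor SESN2, from 270 to 733 (1.44), the serine synthesis enzyme PSAT1, from 981 to 2276 (1.21), and CEBPB, which dimerises with ATF4, from 2164 to 4844 (1.16). The transporters SLC38A2 (1.16), SLC7A5 (1.10), SLC1A4 (1.07) and SLC1A5 (1.0, at the threshold) also rose. ATF4 itself was at 3898 and 6827 (0.81). Of the 25 members that passed, 18 had a log2 fold change above 0 and 7 below. The 1 that fell 2-fold was VLDLR, a lipoprotein receptor, from 108 to 24.1 (-2.12), which passed through the lapatinib library only. SLC6A9 (-0.77), PYCR1 (-0.61) and TRIB3 (-0.35) were among the others below 0. So was NUPR1, a stress-induced chromatin protein, at 257 under DMSO, 2477 under lapatinib, 12.2 under JQ1 and 1506 under both drugs. JQ1 against DMSO gave the list a median of 0.07, with 3 genes higher and 4 lower of 22 (background 2.4% and 5.95%).

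ATF4 binds composite sites whose core, TGATGNAA, stood on either strand in 2.56% of the 15445 windows and in 1.36% of those of the genes tested. In the ATF4 list it stood in 4 of 21 (19%), the windows of ASNS, CHAC1, SLC3A2 and FGF21, the last of which was at 0 in both libraries. The windows of the 3 expressed genes are shown as the part of the list that carries this core. ASNS lies at chr7:97872359-97872658 on the minus strand with its match 68 bases before the start, CHAC1 at chr15:40953221-40953520 on the plus strand with its match 209 bases before, and SLC3A2, which encodes the heavy chain of amino acid transporters, at chr11:62881449-62881748 on the plus strand with its match after the start. Capitals mark the match, read on the opposite strand in CHAC1 and SLC3A2.
ASNS: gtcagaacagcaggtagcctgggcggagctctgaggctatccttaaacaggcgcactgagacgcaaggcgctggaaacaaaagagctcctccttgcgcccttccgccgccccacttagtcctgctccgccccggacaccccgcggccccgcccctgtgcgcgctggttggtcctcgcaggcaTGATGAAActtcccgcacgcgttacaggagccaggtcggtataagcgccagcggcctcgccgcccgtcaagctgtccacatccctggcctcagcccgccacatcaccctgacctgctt
CHAC1: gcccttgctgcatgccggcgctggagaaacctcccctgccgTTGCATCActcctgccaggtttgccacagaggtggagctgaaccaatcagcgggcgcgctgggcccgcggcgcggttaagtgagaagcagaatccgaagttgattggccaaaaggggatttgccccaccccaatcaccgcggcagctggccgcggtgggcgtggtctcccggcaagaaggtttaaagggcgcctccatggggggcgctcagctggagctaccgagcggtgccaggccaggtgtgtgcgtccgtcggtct
SLC3A2: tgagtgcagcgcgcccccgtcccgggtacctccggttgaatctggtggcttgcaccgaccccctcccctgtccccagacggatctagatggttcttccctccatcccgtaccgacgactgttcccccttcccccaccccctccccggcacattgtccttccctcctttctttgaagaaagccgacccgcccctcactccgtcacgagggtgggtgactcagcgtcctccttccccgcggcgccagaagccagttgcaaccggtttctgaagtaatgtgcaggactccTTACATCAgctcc
SLC3A2 was at 5452 with lapatinib and 9700 with both drugs (0.83), below 2-fold, whereas ASNS and CHAC1 rose as given above.

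The branch of the stress response that runs through XBP1 and the endoplasmic reticulum chaperones moved less, with a median of 0.28. Of 25 genes 1 was higher and 0 lower, where 1.92% and 9.58% of all tested genes were. The gene that rose was ERN1, which encodes the sensor IRE1, from 482 to 1028 (1.09). HSPA5, the chaperone BiP, was at 10194 and 16671 (0.71), HERPUD1 at 6059 and 9706 (0.68), and XBP1 at 38637 and 24563 (-0.65).

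FOXO factors are held out of the nucleus by AKT and become active when HER2 signalling is blocked. Of 16 genes in the FOXO list 15 were in the tables and 14 passed, of which 5 rose (1.92% of all tested genes did) and 0 fell, with a median of 0.48. With the filter on DMSO 4 of 12 rose. For 13 of the 14 that passed, the combination library held the highest SKBR-3 value, although 2 of the 14 passed through that library only. FBXO32, a ubiquitin ligase subunit, was at 462 under DMSO, 3874 under lapatinib, 621 under JQ1 and 8609 under both drugs (1.15). TXNIP, an inhibitor of thioredoxin and of glucose uptake, was at 1555, 10881, 5896 and 25780 (1.24) and BCL6, a repressor, at 168, 590, 251 and 1224 (1.05). FOXO3 was at 830, 2342, 1186 and 5365 (1.2), and with its near-identical copy FOXO3B the sum changed by 1.14. SESN3, 1 of those 2, went from 32.9 to 107 (1.67). In FBXO32, TXNIP, BCL6 and FOXO3 each drug alone lay above DMSO and both drugs gave the highest value. In the AP-1 and immediate early list 3 of 9 rose and 0 fell (median 0.68), namely EGR1, JUN and ATF3, a factor of the ATF family, which went from 352 to 1225 (1.80). JUND, another AP-1 subunit, was at 2007 and 3869 (0.95).

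**Figure D3:**
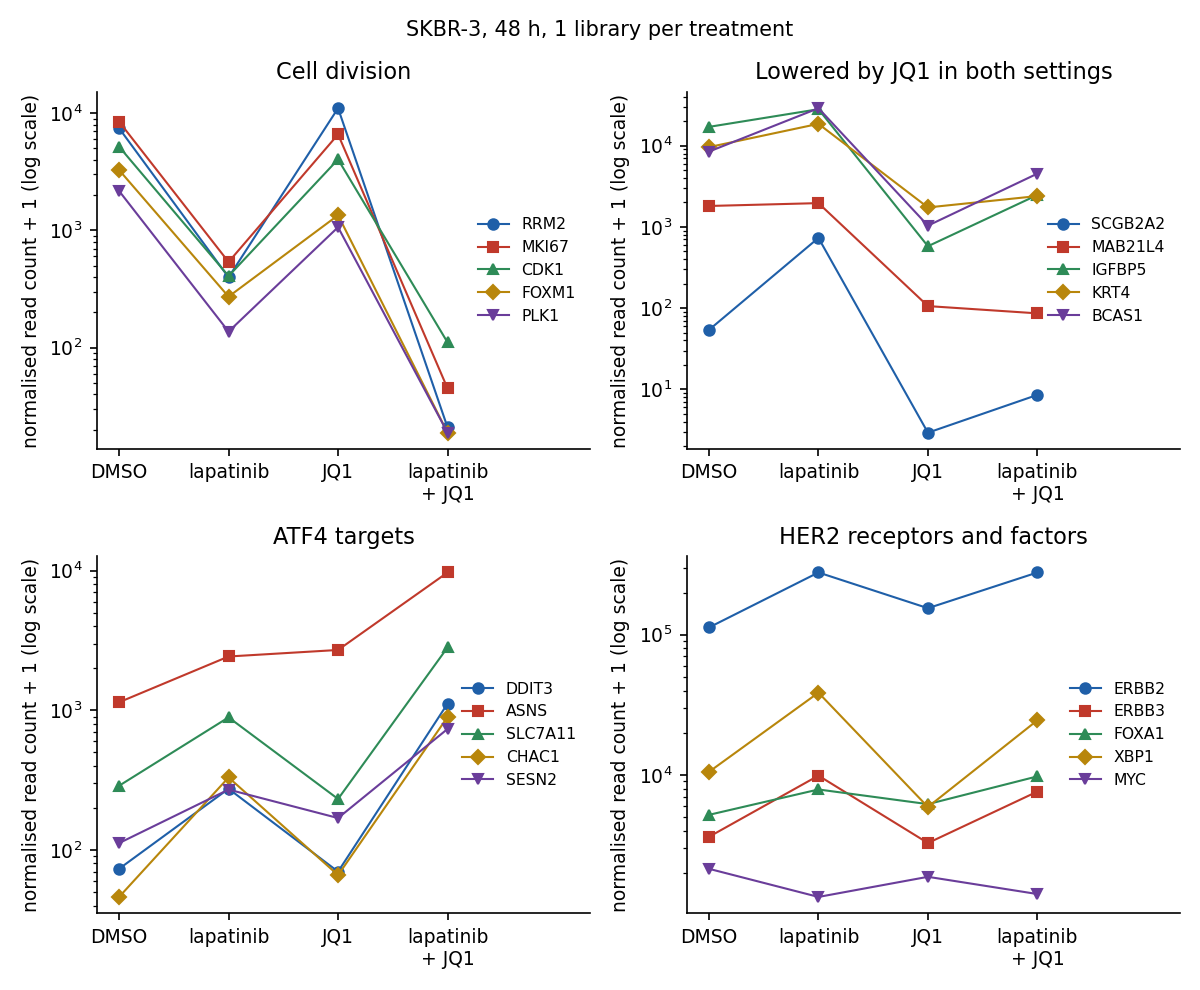
Normalised read count plus 1 (y axis, log scale) of 20 genes in the 4 SKBR-3 libraries (x axis, 1 library per treatment), with lines joining the values of a gene. The cell division genes are lowest with both drugs, the genes of the upper right panel are low in both libraries with JQ1, DDIT3, ASNS and SLC7A11 are highest with both drugs, and ERBB2 has the same height with lapatinib and with both drugs.

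Replication-dependent histone messages normally end in a stem-loop and not in a poly(A) tail, so that selection of poly(A) RNA sees only the tailed part of them. With the filter on the DMSO library 6 of 66 such genes passed and 5 rose at least 2-fold, where 1.44% of all genes did, with a median of 2.33. With the filter on either library of the contrast 17 passed, 16 rose and 0 fell (median 2.47), but 10 of the 16 passed only through the combination library, where they had to be high. The summed value of all 66 was 4391 under lapatinib and 16580.5 under both drugs. H4C14 was at 315 under DMSO, 302 under lapatinib, 5994 under JQ1 and 3720 under both drugs (3.62), H2AC6 at 318, 689, 2976 and 2370 (1.78) and H1-2 at 321, 399, 2978 and 2067 (2.37). In these 3 genes both libraries with JQ1 lay above both without it. H2BC12 was the exception in the list, at 1121, 1679, 5883 and 1518 (-0.15). Near-identical coding sequences make the values of single histone genes uncertain. With JQ1 against DMSO 19 passed and all 19 were at least 2-fold higher (median 3.22), where 2.4% of all genes tested there were. Of these genes 6 reached 100 under DMSO, and the others passed only through the JQ1 library, where they had to be high.

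In the list of BET proteins and P-TEFb 12 of 14 passed and 1, BRD2, rose at least 2-fold (1.92% of all tested genes did), with a list median of 0.33. BRD2 was at 4737 under DMSO, 5116 under lapatinib, 11948 under JQ1 and 12153 under both drugs (1.25), so that the libraries with and without JQ1 formed separate levels. BRD3 was at 1213 with lapatinib and 1836 with both drugs (0.60), the P-TEFb cyclin CCNT1 at 394 and 612 (0.63) and MEPCE, a 7SK RNA capping enzyme, at 1874 and 2620 (0.48). Of 8 genes known as markers of BET inhibitor response 6 passed, 1 rose and 1 fell (median 0.33). The histone gene H2BC21 rose from 116 to 844 (2.86), and ZMYND8, a bromodomain reader, fell from 1541 to 321 (-2.26). HEXIM1 was at 2112 under DMSO, 2825 under lapatinib, 3704 under JQ1 and 3277 under both drugs, so that its change on top of lapatinib was 0.21 (0.15 to 0.28) against 0.81 without lapatinib. SERPINI1, a serpin, was at 119 and 223 (0.90), and ZCCHC24 at 125 and 170 (0.44).

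MYC, the growth factor-responsive regulator that BET inhibitors often lower, was at 2143 under DMSO, 1350 under lapatinib, 1879 under JQ1 and 1416 under both drugs, and its change for the addition was 0.07 (-0.02 to 0.16), an interval that includes 0. Its network had 1 higher and 1 lower gene of 10 (median 0.07), where 1.92% and 9.58% of all tested genes were. They were MXI1, an antagonist of MYC, from 397 to 830 (1.06), and the glucose-responsive factor MLXIPL, from 119 to 57.8 (-1.03). MLXIPL passed through the lapatinib library only and fell less than 2-fold with the median of ratios. All 32 genes of ribosome biogenesis and RNA polymerase I passed and none changed 2-fold, where 88.5% of all tested genes stayed within 2-fold. Their median was -0.07, the same as that of all tested genes, and they ran from RRS1 at -0.88 to a highest value of 0.54.

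The receptor genes ERBB2, ERBB3 and EGFR stayed within 2-fold. ERBB2, which encodes HER2, was at 112656 under DMSO, 277859 under lapatinib, 154570 under JQ1 and 277872 under both drugs, a change of 0.00 (-0.01 to 0.01) for the addition, which became -0.03 with equal totals and 0.16 with the median of ratios. ERBB3, which encodes the partner receptor HER3, was at 3623, 9897, 3272 and 7619 (-0.38; -0.41 to -0.34), and EGFR at 2769, 3370, 2758 and 3624 (0.11). The combination library thus held more than 2 times the DMSO value of both ERBB2 and ERBB3. Of 16 receptors and ligands 5 passed, with EGF, a ligand of EGFR, lower (744 to 287, -1.37) and ERRFI1, a feedback inhibitor of EGFR and HER2, higher (440 to 1038, 1.24). Of 22 genes around ERBB2 on chromosome 17 that are commonly amplified with it, 16 passed, 3 fell and 1 rose (median -0.01), where 9.58% and 1.92% of all tested genes did. PPP1R1B, a phosphatase inhibitor, fell from 356 to 25.5 (-3.75), the thyroid hormone receptor THRA from 913 to 187 (-2.28) and the clock repressor NR1D1 from 181 to 86.3 (-1.06, and -0.90 with the median of ratios). MIEN1 rose from 4416 to 13597 (1.62), although it overlaps the end of ERBB2 and the assignment of reads between them is uncertain. The adaptor gene GRB7 was at 17630 and 34802 (0.98), and above 2-fold with the median of ratios, so that the 1 that rose depends on the scaling.

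Of 54 other receptor tyrosine kinases 19 passed, with 5 lower and 0 higher and a median of -0.43, where 9.58% of all tested genes were lower and their median was -0.07. With the filter on DMSO 4 of 19 were lower. MET, the receptor of hepatocyte growth factor, was at 1329 under DMSO, 2115 under lapatinib, 380 under JQ1 and 715 under both drugs (-1.56), and TYRO3, a receptor of the TAM family, at 918, 979, 249 and 260 (-1.91). FGFR2 was at 961, 1410, 483 and 594 (-1.25), the ephrin receptor EPHA4 at 164, 128, 50.3 and 33.0 (-1.92) and the pseudokinase PTK7 at 95.9, 283, 42.5 and 99.7 (-1.50). In MET, TYRO3, FGFR2 and EPHA4 both libraries with JQ1 lay below both without it. DDR1, a collagen receptor kinase, was at 14257 with lapatinib and 10580 with both drugs (-0.43). INSR, the insulin receptor, was at 199 under DMSO, 737 under lapatinib, 351 under JQ1 and 1462 under both drugs (0.99). It passed 2-fold with the median of ratios, so that the 0 higher of this list depends on the scaling. Of the cytoplasmic tyrosine kinases 15 of 32 passed and 3 fell (median -0.18), namely SRC, from 495 to 129 (-1.94), PTK6, from 309 to 114 (-1.44), and SYK, from 162 to 64.0 (-1.33). JAK1 was at 3565 and 6522 (0.87), and above 2-fold with the median of ratios (1.03).

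Of the luminal transcription factors 3 were lower and 0 higher of 24 (median 0.00), a share close to the 9.58% of all tested genes that were lower. The ETS factors EHF (1364 to 251, -2.44) and ELF5 (253 to 87.4, -1.53) and GRHL3, a grainyhead factor of epithelial differentiation (173 to 72.2, -1.25), fell. FOXA1, a pioneer factor of luminal enhancers, was at 5198 under DMSO, 7884 under lapatinib, 6197 under JQ1 and 9780 under both drugs (0.31; 0.27 to 0.35). GATA3, its partner in luminal cells, was at 3080 and 3719 (0.27) and ELF3 at 13391 and 24921 (0.90). Of 21 secretory and apocrine products of the breast 7 passed, with 5 lower and 0 higher and a median of -1.48, where 9.58% of all tested genes were lower. SCGB2A2 and PIP passed through the lapatinib library only, and with the filter on DMSO 3 of 5 were lower (median -1.40). With SCGB2A2 the lower genes were the mucin MUC1 (4645 to 909, -2.35), the prolactin-induced protein PIP (142 to 28.9, -2.26), AZGP1 (508 to 181, -1.48) and AGR2, a disulfide isomerase of secretory cells (3085 to 1167, -1.40). CLU, the secreted chaperone clusterin, was at 13679 and 14258 (0.06). MUC1, PIP and SCGB2A2 stood at 444, 7.87 and 53.0 with DMSO, so that these were genes at their highest with lapatinib.

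Most lipid genes stayed within 2-fold, as did 88.5% of all tested genes. Sterol synthesis and uptake had 1 higher and 1 lower gene of 23 (median -0.07), where 1.92% and 9.58% of all tested genes were. INSIG1, which retains the sterol sensor in the endoplasmic reticulum, went from 172 to 375 (1.12), and STARD4, a cholesterol carrier, from 123 to 36.5 (-1.73). Fatty acid synthesis had 1 higher and 1 lower of 15 (median -0.14), with the master regulator SREBF1 at 7560 and 17956 (1.25), the elongase ELOVL6 at 671 and 323 (-1.05, and -0.89 with the median of ratios) and the desaturase SCD at 9920 and 15272 (0.62). SREBF1 and SCD were higher still with JQ1 alone, at 30582 and 44773. The genes of insulin-like growth factor binding had 2 lower of 4, IGFBP5 and IGFBP2 (332 to 157, -1.08, and -0.91 with the median of ratios), at a median of -0.91. IGF2R, the receptor that clears IGF2, was at 5008 and 8228 (0.72).

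In the BCL2 family, which sets the threshold for apoptosis, 2 of 13 fell and 1 rose (median 0.31), where 9.58% and 1.92% of all tested genes did. BMF, a BH3-only activator of apoptosis, was at 202 under DMSO, 1083 under lapatinib, 300 under JQ1 and 2434 under both drugs (1.17), so that the combination library was the highest. BOK (180 to 81.9, -1.13) and BID (176 to 84.1, -1.05) fell, both less than 2-fold with the median of ratios. Both passed through the lapatinib library only, and with the filter on DMSO 2 of 11 fell. Few immune genes were expressed: 5 of 28 NF-kappaB targets and cytokines passed, with the chemokine CX3CL1 higher (957 to 3018, 1.66) and TNFAIP2 lower (619 to 142, -2.11) at a median of 0.20. Of the interferon-stimulated genes 10 of 31 passed, with 3 higher, IRF7 (1.37), IRF1 (1.15) and RIGI (1.0, and 0.96 with a pseudocount of 10 and 0.97 with equal totals), and 1 lower, ISG20 (-1.39), at a median of -0.05, which was -0.62 with a filter at 10. Of 8 genes of MHC class I presentation that passed, the immunoproteasome subunit PSMB8 fell (108 to 37.8, -1.49) and B2M, the class I light chain, was at 5328 and 10042 (0.91), with a list median of -0.18. PSMB8 passed through the lapatinib library only, and with the filter on DMSO 0 of 7 were lower and the median was 0.05.

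Keratins had 3 higher and 2 lower of 11 (median 0.11), where 1.92% and 9.58% of all tested genes were. They were KRT15 (1.54), KRT8 and KRT18 against KRT4 and KRT23 (-1.95). KRT23 passed through the lapatinib library only, and with the filter on DMSO 3 were higher and 1 lower of 10 (median 0.42), while a filter at 10 gave a median of -0.22. Epithelial markers had 2 higher of 7, again KRT8 and KRT18 (median 0.56). Notch receptors, ligands and effectors had 2 lower and 1 higher of 13 (median 0.13), with HES4, a Notch target (280 to 70.2, -1.98), and the receptor NOTCH3 (2467 to 863, -1.51) against the ligand JAG1 (56.7 to 151, 1.40). JAG1 passed through the combination library only, and with the filter on DMSO 0 of 10 were higher. Krueppel-like factors had KLF2 higher and KLF12 lower (-1.17) of 13 (median 0.18). Integrins and laminins had 1 lower of 11, LAMA3 (-1.12, and -0.96 with the median of ratios), at a median of 0.14. LAMA3 passed through the lapatinib library only, and with the filter on DMSO 2 of 12 were lower. Lysosome and autophagy genes had 1 lower of 28, MAP1LC3A (206 to 72.2, -1.50), at a median of 0.19. The feedback genes of MAPK signalling had no 2-fold change among 6 (median 0.16), and DUSP5, an ERK phosphatase, was at 89.6 and 175 (0.96, and 1.12 with the median of ratios).

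The same addition of JQ1 was then read in SKBR-3 without lapatinib. The contrasts of both drugs against lapatinib and of JQ1 against DMSO share no library. Across 9542 genes that passed in both, the log2 fold changes had a Pearson r of 0.771 and a Spearman rho of 0.740, given as a description because genes are not independent replicates and the 4 libraries are of 1 line. Of the 826 genes lowered on top of lapatinib, 425 were lowered at least 2-fold without it as well. This was 51.5% of the former and 82.4% of the 516 lowered without lapatinib, where 4.45% of all genes were lowered in both. Of 171 genes raised on top of lapatinib 90 were raised in both settings (52.6%), which was 41.5% of the 217 raised without it and 0.943% of all genes. Of the lower genes 809 of 826 (97.9%), and of the higher genes 163 of 171 (95.3%), had the same sign without lapatinib. NOS3, ACSL5, CBLN2, MAB21L4 and TBATA were, with histone genes left aside, the most lowered in both settings, each at -4.09 or below, and UPK3BL1, DHRS2, KLF2, PEG10 and JUN the most raised, each at 1.96 or above. Only OCLNP1 and ZNHIT2, which rest on fractional estimates, moved at least 2-fold in opposite directions.

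**Figure D4:**
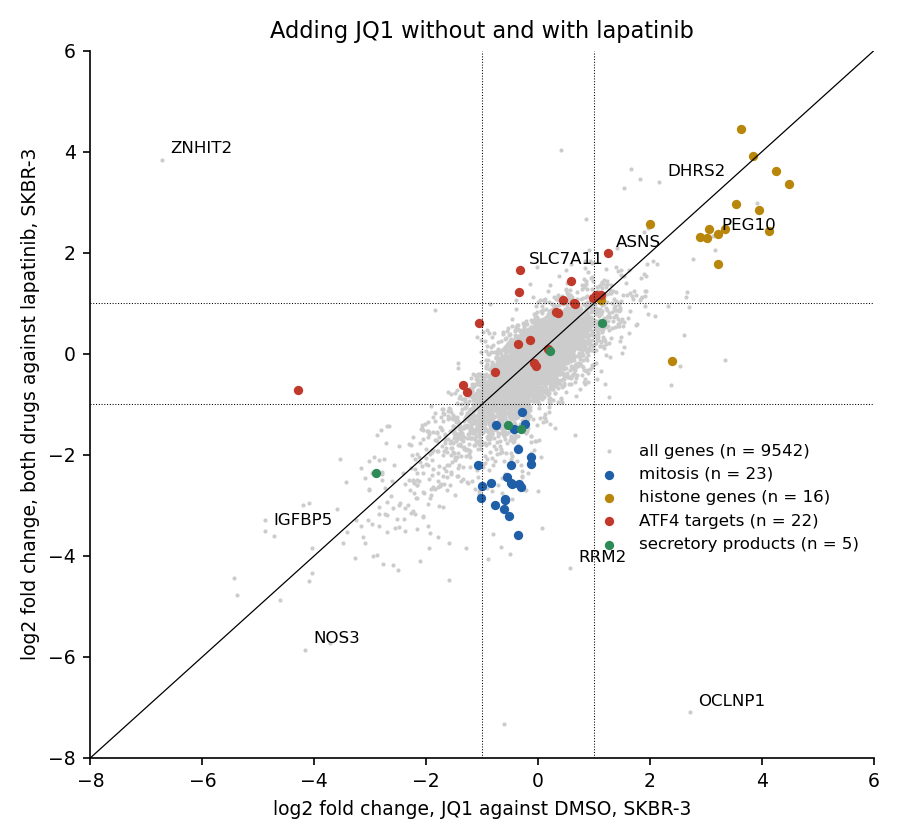
Log2 fold change of JQ1 against DMSO (x axis) and of both drugs against lapatinib (y axis) in SKBR-3 for 9542 genes, with members of 4 lists in colour, a solid line of equality and dotted lines at 2-fold. The mitosis genes lie far below the line, most ATF4 targets lie above it, and histone genes lie high on both axes.

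In BT474m1, a HER2-amplified derivative of BT474 that expresses estrogen and progesterone receptors, JQ1 was also added to lapatinib, with 1 library per side and no library shared with SKBR-3. Across 9383 genes that passed in both lines the log2 fold changes had a Pearson r of 0.575 and a Spearman rho of 0.523. Of 721 genes lowered in SKBR-3, 278 were lowered in BT474m1 (38.6%), which was 50.8% of the 547 lowered there and 2.96% of all genes. Of 169 genes raised in SKBR-3, 52 were raised in BT474m1 (30.8%), which was 24.0% of 217 and 0.554% of all genes. The genes most lowered in both lines were SCGB2A2, MAB21L4, GGT6, a gamma-glutamyltransferase, PLEKHA2 and ZNF618. In BT474m1, SCGB2A2 went from 1208 to 34.4 (-5.09), MAB21L4 from 370 to 21.6 (-4.04) and GGT6 from 578 to 20.4 (-4.76), where GGT6 in SKBR-3 went from 502 to 29.6 (-4.04). The genes most raised in both, with histone genes left aside, were EIF3C, HYCC1, CDKN2D, MAP2, a microtubule-associated protein, and MT1X, a metallothionein. The value of EIF3C is uncertain in both lines, since the sum of EIF3C and its copy EIF3CL went from 12512 to 11161 in BT474m1. HYCC1 rose from 242 to 1708 in BT474m1 (2.82), CDKN2D from 49.4 to 294 (2.55), MAP2 from 117 to 761 (2.69) and MT1X from 64.5 to 275 (2.08).

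The lists with the largest changes in SKBR-3 differed in what they did in BT474m1. In the mitosis list 10 of 34 genes passed there, with a median of -0.23. Of these 0 changed at least 2-fold, where 8.52% of all genes tested there were lower and 3.1% higher. CDK1 went from 120 to 190 (0.65), while BUB1B, below the filter in this contrast, went from 75.2 to 31.7 (-1.22). The summed value of the list in SKBR-3 was 105091 under DMSO, 8884 under lapatinib and 1596 under both drugs. In BT474m1 it was 66256, 3422 and 3037 in the same order. Lapatinib alone had thus already lowered it in both lines. The ATF4 list had 6 lower and 0 higher of 25 in BT474m1 (median -0.48), where 8.52% of all tested genes were lower and 3.1% higher. The histone list had 5 higher and 1 lower of 12 (median 0.73), and the secretory list 8 lower and 0 higher of 12 (median -3.0). MYC went from 2312 to 60.1 in BT474m1 (-5.24), beside 0.07 in SKBR-3. ERBB2 (-0.18), ERBB3 (-0.48), EGFR (0.16) and FOXA1 (0.18) stayed within 2-fold in BT474m1 as well, and XBP1 went from 24192 to 9448 (-1.36). With 1 library per treatment, differences between the lines were not tested.

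**Figure D5:**
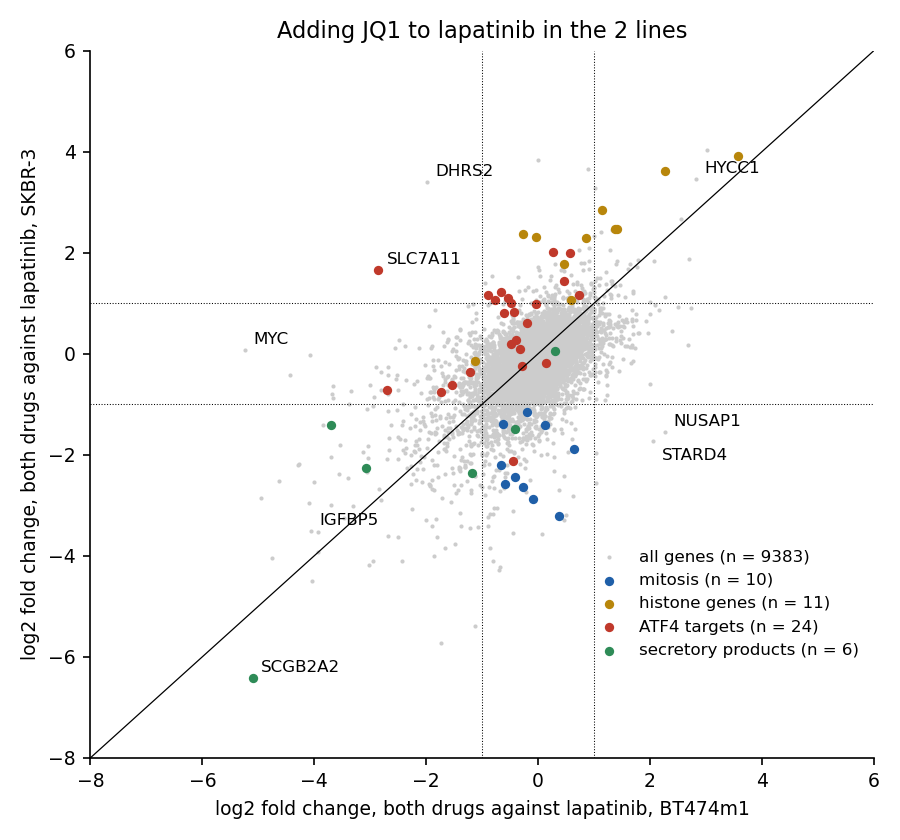
Log2 fold change of both drugs against lapatinib in BT474m1 (x axis) and in SKBR-3 (y axis) for 9383 genes, with members of 4 lists in colour, a solid line of equality and dotted lines at 2-fold. The 10 mitosis genes are below -1 in SKBR-3 and within 2-fold in BT474m1, MYC is near 0 in SKBR-3 and at -5.24 in BT474m1, and DHRS2 and SLC7A11 lie high in SKBR-3 and below -1 in BT474m1.

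Across the 9090 genes that passed in all 3 contrasts of JQ1 against its own control, 171 were at least 2-fold lower in all and 32 higher. Of 642 genes lowered on top of lapatinib in SKBR-3, 247 were lowered in that contrast only by the 2-fold threshold, and of 154 raised, 57.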

How the data were processed

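RNAseq of poly(A) RNA from 8 cultures was analysed, with groups taken from the labels. The treatment time of 48 h is that of the labels, and the methods text of the study gives a shorter one. The deposited signal per gene is a read count that the authors estimated with RSEM (hg19, per the labels, with Picard 1.88 and SAMtools 1.2) and scaled to an upper quartile of 1000. The labels name a strand-preserving and another library kit, so that strand is uncertain. The value of 1 read was recovered as the common step between values (0.766 units with lapatinib, 0.688 with both drugs), and 84.8% and 84.7% of values above 0 were whole reads within 0.01. The others are fractional estimates.

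Changes were computed as differences of log2(value + 1), a scale that understates changes of low genes, for genes at 100 or more in either library, and a gene was called at 2-fold. With 1 library per group the contrast was not tested. Exact Clopper-Pearson 95% intervals came from the recovered reads, and, like the floor of 3 reads (2.30 units with lapatinib, 2.06 with both drugs), cover counting error only, since reads copied by PCR cannot be traced to separate molecules.

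Members, gene lists (38, with 801 genes in the tables, and FOXO6, which was not in them) and motifs were chosen with earlier results of these data known. Genes were named by rule: the 15 that fell and 15 that rose most (replication-dependent histone genes left out here and in the genes shared between settings or lines), the 4 largest changes of each list, 17 fixed genes, the 5 that gained and 5 that lost most value, the 5 most changed each way in both settings or lines, those opposite in the lines, and 4 histone genes. Other list members were named after their values were seen. A few genes that the rule takes are not reported here. RefSeq (GRCh38.p14) matched 20372 genes (99.2%) by Entrez identifier. The alternatives tried were equal totals or the median of ratios as the scaling, 10 as the pseudocount, filters at 10, at 100 in DMSO or none, and intervals that exclude no change. Python 3.11.15 was used with matplotlib 3.10.9, pandas 2.3.3, numpy 2.4.6 and scipy 1.17.1, and the calls were tested on simulated data.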

Additional observations from a re-analysis of the deposited data

Results flagged for a closer look

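When JQ1 was added to lapatinib, 6 genes moved at least 2-fold in opposite directions in SKBR-3 and BT474m1, of 9383 that passed the filter in both lines. With 1 library per treatment the difference between the lines was not tested for any of them.

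DHRS2 rose by 3.40 on the log2 scale in SKBR-3 and fell by 1.98 in BT474m1, from 3557 to 901. SLC7A11, the cystine importer, rose by 1.66 in SKBR-3 and fell by 2.86 in BT474m1, from 175 to 23.3. NUSAP1, a spindle protein, fell by 1.56 in SKBR-3, from 308 to 104, and rose by 2.27 in BT474m1, from 45.2 to 222. STARD4 fell by 1.73 in SKBR-3 and rose by 2.06 in BT474m1, from 24.1 to 103.8. AJM1, a protein of apical junctions, fell by 1.96 in SKBR-3, from 228 to 57.8, and rose by 1.04 in BT474m1, from 130 to 268. NRK, a kinase, fell by 2.56 in SKBR-3 and rose by 1.03 in BT474m1.

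The list of ATF4 targets had a median of 0.83 in SKBR-3 and -0.48 in BT474m1, with 11 genes higher and 1 lower in the first and 0 higher and 6 lower in the second, a difference that was not tested.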

How the results depend on the processing

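The number of lower genes (953) went to 1909 with a filter at 10 and 2802 with none, and the number of higher genes (191) to 327 and 634, because more genes were counted, and to 289 with the median of ratios. A pseudocount of 10, equal totals, the filter on DMSO and intervals that exclude no change left both counts within 1.5 times, as did the median of ratios for the lower genes. With a filter at 10, genes changed with and without lapatinib went from 425 to 958 lower and from 90 to 141 higher, and genes changed in both lines from 278 to 658 lower and from 52 to 109 higher. Under the median of ratios the medians of ribosome biogenesis (0.09), sterol (0.09), fatty acid (0.02), interferon-stimulated (0.11) and HER2 amplicon genes (0.15) turned positive, and under equal totals those of ERBB and luminal genes (-0.03 each) turned negative. A filter at 10 turned those of the MYC network (-0.02), ERBB (-0.37), luminal (-0.02), NF-kappaB (-0.01), MHC class I (0.05) and keratin genes (-0.22), and moved those of interferon-stimulated (-0.62), MAPK feedback (0.49), secretory (-1.74), repair (-0.90) and G1 genes (-0.03) without a turn. The DMSO filter turned those of luminal (-0.01) and MHC class I genes (0.05) and moved that of keratins to 0.42. ERBB2 (-0.03 with equal totals) and H2BC12 (0.02 with the median of ratios) also changed sign. Of 185 named genes, 8 lost and 10 gained a 2-fold change with the median of ratios, 6 lost and 0 gained one with a pseudocount of 10, and 1 lost and 1 gained one with equal totals, all near 2-fold. No paired analysis was possible because each group of the contrast held 1 library, and for the same reason no library could be left out. A fit over the pairs of JQ1 and its control in both lines, which would estimate an average effect of JQ1, was not run. Depth limits genes with few reads, such as LRRC31, with 3 reads in the combination library.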
